A study of Mus musculus with 12 samples.

Results

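The genes examined here are the core of the insulin and IGF signaling pathway: the receptors Insr and Igf1r, the adaptors Irs1 and Irs2, the regulatory subunit Pik3r1, the kinases Pdpk1, Akt1 and Akt2, and the transcription factors Foxo1 and Foxo3. These 10 genes were taken by gene name from tables of 54022 genes, and each name matched 1 entry. MIN6 cells, an insulin-secreting beta cell line from a mouse insulinoma that carries the genotype label WT in all libraries, were given vehicle or 100 nM trimethylamine N-oxide (TMAO, a metabolite made from dietary choline by gut bacteria and the liver) for 18 h. They were then fasted for 1 h and stimulated with low glucose (2.8 mM) or with high glucose, whose concentration is given with the processing of the data, and poly(A) RNA was sequenced. Each of the 4 conditions has 3 libraries, so that glucose can be compared within vehicle-treated and within TMAO-treated cells, and TMAO within each glucose level. All groups come from 1 cell line, and how long the glucose stimulation lasted before the RNA was taken is not given in the sources used here.

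Insulin and insulin-like growth factors bind the receptors Insr and Igf1r, which phosphorylate the adaptors Irs1 and Irs2. The adaptors recruit PI3-kinase through its regulatory subunit, the lipid it makes brings Akt to the membrane, and Pdpk1 phosphorylates Akt there. Active Akt phosphorylates the Foxo factors, which then leave the nucleus. Beta cells respond to the insulin they release, and Irs2 is the adaptor best known for beta cell growth and survival. These data measure mRNA, so they carry no information on phosphorylation, on where Foxo proteins are, or on pathway activity.

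Library totals lay between 16793162 and 22340542 counts, with a median of 18874667, and 16222 genes had enough counts to be tested. All 10 genes were among them, the least counted being Foxo1 with 367 to 577 counts a library. The label of a beta cell line was checked against 31 marker genes in 9 lists: all 11 beta cell markers were present, with a summed level of 39899 to 47395 FPKM (fragment counts scaled to gene length and to the library total). Duct cell markers were at 0 counts in every library, as were Ptprc and Adgre1 of the immune list, while the alpha cell gene Gcg had a mean of 216 FPKM. The summed alpha cell list lay between 791 and 846 FPKM in vehicle-treated cells in low glucose and between 853 and 911 FPKM in high glucose. The immune list, carried by Cd68 alone, lay between 2.88 and 3.62 and between 4.33 and 4.84 FPKM in the same comparison, and none of its genes or of the alpha cell list passed the test. In TMAO-treated cells the ranges were 767 to 861 and 876 to 902 FPKM for the alpha cell list and 3.87 to 4.10 and 4.12 to 4.30 FPKM for the immune list. The part of these small shifts in the results below was not tested. Of the beta cell markers, Nkx2-2 passed the test for glucose with both treatments and Mafa with vehicle, both upward, and they are named here after their values were seen.

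Across the 12 libraries the pathway was expressed unevenly from step to step. Akt1 had the highest mean level at 60.4 FPKM, followed by Akt2 at 50.2, Irs2 at 30.2, Pdpk1 at 13.9, Pik3r1 and Igf1r at 13.0, Foxo3 at 11.9, Insr at 4.51, Irs1 at 3.02 and Foxo1 at 2.95 FPKM. Akt1 exceeded 94.9% of the tested genes in mean FPKM, and Foxo1 exceeded 38.2%. Akt1, Akt2, Irs2, Foxo3 and Insr had ranges apart from their next lower neighbour in all 4 conditions. Pik3r1 changed its place: its libraries lay below those of Pdpk1 and Igf1r in low glucose and above them in high glucose, with no overlap in any condition. Igf1r and Foxo3 overlapped in high glucose and lay apart in low glucose. Irs1 and Foxo1 overlapped in every condition except vehicle-treated cells in high glucose, so their order is not resolved.

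**Figure D1:**
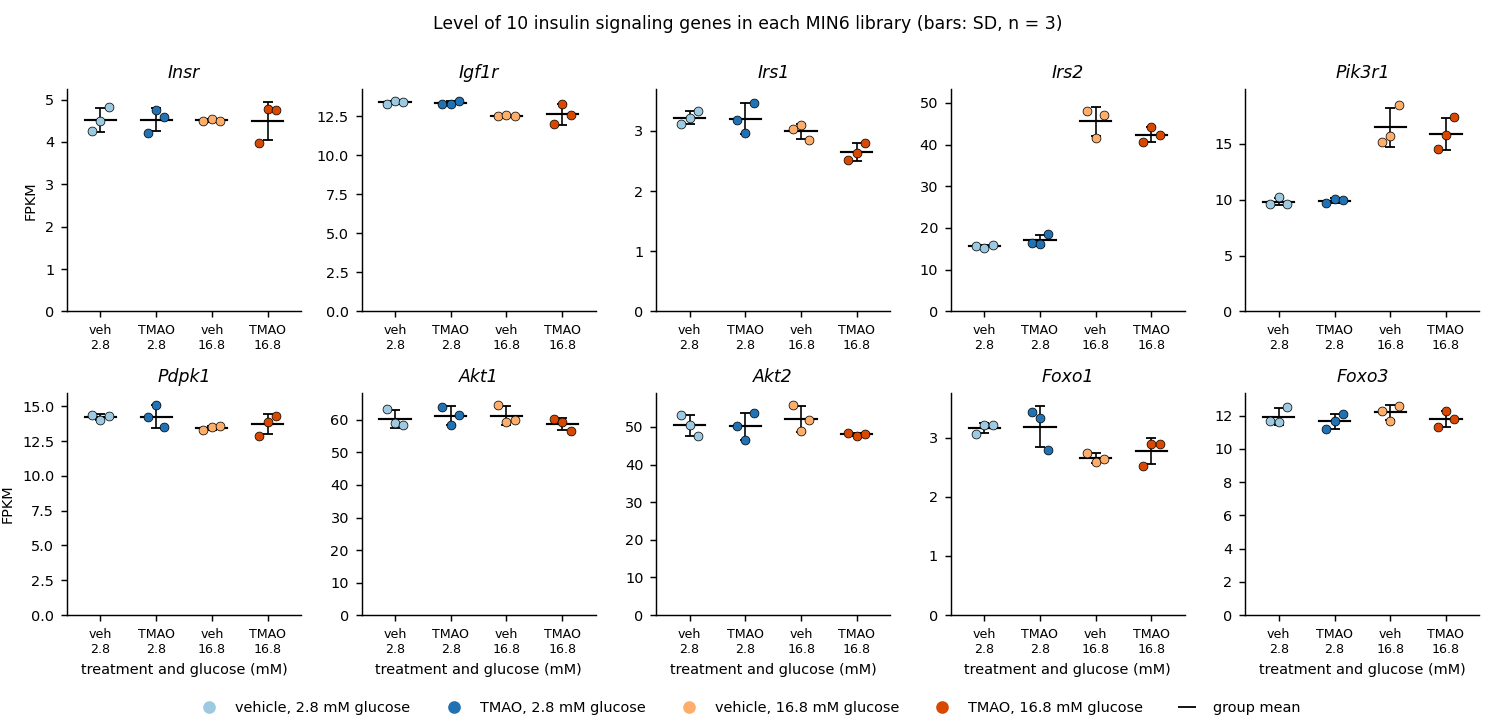
Level of each gene in FPKM (vertical axes, starting at 0) in the 4 conditions, with 1 point per library, a bar at the mean and the SD over 3 libraries. Irs2 and Pik3r1 are the genes whose 6 high-glucose points all lie above their 6 low-glucose points, and Igf1r is the gene whose high-glucose points all lie below.

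Glucose moved 2 of the 10 genes in vehicle-treated cells, Irs2 and Pik3r1, both upward, with the quasi-likelihood test of edgeR at an adjusted p under 0.05. Over all tested genes 1.99% rose and 1.31% fell in that comparison, and none of the 10 genes fell. In TMAO-treated cells Irs2 and Pik3r1 rose again and Irs1 fell, beside 2.0% of all tested genes that rose and 1.64% that fell. The median log2 fold change of the 10 genes was 0.013 in vehicle-treated and -0.058 in TMAO-treated cells, and that of all tested genes was 0.0021 and 0.0012. In bulk RNA a lower share of a cell type and less RNA per cell cannot be told apart.

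Neither receptor gene passed the test in any comparison. Insr, the insulin receptor (chr8:3122061-3279617, minus strand, GRCm38), was measured at 4.25, 4.49 and 4.82 FPKM with vehicle in low glucose and at 4.50, 4.54 and 4.49 FPKM with vehicle in high glucose. TMAO-treated libraries gave 4.22, 4.76 and 4.6 FPKM in low glucose and 3.98, 4.77 and 4.75 FPKM in high glucose. The 4 ranges overlap, and the interval of the fold change ran from 0.912 to 1.10 for glucose with vehicle and from 0.911 to 1.09 for TMAO in high glucose.

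Igf1r, the receptor for insulin-like growth factors (chr7:67952827-68233668, plus strand), had 13.3, 13.5 and 13.4 FPKM with vehicle and 13.3, 13.3 and 13.5 FPKM with TMAO in low glucose. In high glucose it had 12.5, 12.6 and 12.5 FPKM with vehicle and 12, 13.3 and 12.6 FPKM with TMAO. Before rounding, the high-glucose libraries sat below the low-glucose ones within each treatment. The log2 fold change was -0.09 ± 0.04 (SE) with vehicle and -0.09 ± 0.04 with TMAO, and the adjusted p of 0.342 and 0.36 did not pass the threshold.

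Irs2 showed the widest change of the 10. The gene lies at chr8:10984681-11008458 on the minus strand and its exons add up to 6323 bases. In low glucose it stood at 15.7, 15.3 and 15.8 FPKM in the vehicle libraries and at 16.4, 16.2 and 18.5 FPKM in the TMAO libraries. High glucose brought it to 48.0, 41.6 and 47.2 FPKM with vehicle and to 40.6, 44.3 and 42.3 FPKM with TMAO. The lowest high-glucose library, at 40.6 FPKM, was well above the highest low-glucose library, at 18.5 FPKM. The fitted rise was 2.92-fold with vehicle (95% interval 2.70 to 3.17, log2 1.55 ± 0.06 SE, adjusted p = 9.01e-18) and 2.49-fold with TMAO (2.30 to 2.70, log2 1.32 ± 0.06 SE, adjusted p = 3.63e-16). By size of rise Irs2 ranked 47 of 16222 genes with vehicle and 81 with TMAO. An antisense gene, 9530052E02Rik, shares 162 exonic bases with Irs2 and was listed with a mean of 2.83 counts against 3595 for Irs2.

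Irs1, the other widely expressed adaptor (chr1:82233101-82291416, minus strand), was present at a lower level. It had 3.12, 3.21 and 3.33 FPKM with vehicle and 3.18, 2.96 and 3.47 FPKM with TMAO in low glucose. In high glucose the values were 3.03, 3.09 and 2.85 FPKM with vehicle and 2.51, 2.64 and 2.8 FPKM with TMAO. The TMAO libraries in high glucose were the lowest of the 12 and overlapped with no other group, and the vehicle libraries in high glucose were also below those in low glucose. With TMAO, glucose lowered Irs1 to 0.829 of its level (95% interval 0.748 to 0.918, adjusted p = 0.0286), whereas with vehicle the fold was 0.930 (0.841 to 1.03, adjusted p = 0.596). The difference between these effects was tested as the interaction and did not pass (log2 -0.17 ± 0.10 SE, adjusted p = 1). The call in TMAO-treated cells was lost without the TMAO library 1 or 3 in low glucose (adjusted p = 0.0759 and 0.185) and without the TMAO library 1 or 2 in high glucose (0.15 and 0.0975), at log2 fold changes between -0.32 and -0.21 over the libraries left out. Exons of the antisense model Gm9747 cover 2822 of the 9144 exonic bases of Irs1 and had 0 counts. Whether strand was used in counting is not stated, so this 0 does not tell whether Irs1 reads were left out. The effect of the overlap on the Irs1 level was not tested.

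The bases before the start of these genes are shown because Irs2 and Irs1 are close relatives of which Irs2 rose with glucose in both treatments and Irs1 fell with glucose in TMAO-treated cells in the main test, and Pik3r1 rose beside Irs2. The table of RefSeq promoter windows used here covers 9 of the 10 genes, without Insr. Each line below holds the 250 bases before the RefSeq start on the strand of the gene, from 5′ to 3′, with build GRCm38.p6. Capitals mark the E-box CACGTG (bound by basic helix-loop-helix factors), TGTTTTG (the core of the insulin response element, a Foxo site) and TGACG (part of the cAMP response element), each searched on both strands.
Irs2, chr8:11008930-11009179, minus strand: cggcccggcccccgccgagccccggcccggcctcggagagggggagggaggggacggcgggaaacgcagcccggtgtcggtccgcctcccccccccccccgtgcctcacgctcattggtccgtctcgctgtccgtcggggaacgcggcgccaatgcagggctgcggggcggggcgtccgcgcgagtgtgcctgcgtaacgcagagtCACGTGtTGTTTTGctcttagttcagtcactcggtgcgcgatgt
Irs1, chr1:82291440-82291689, minus strand: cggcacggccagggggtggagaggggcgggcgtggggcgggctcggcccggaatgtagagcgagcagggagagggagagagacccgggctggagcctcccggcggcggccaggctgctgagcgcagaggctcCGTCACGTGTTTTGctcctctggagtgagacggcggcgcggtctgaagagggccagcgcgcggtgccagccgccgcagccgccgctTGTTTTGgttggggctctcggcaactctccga
Pik3r1, chr13:101768218-101768467, minus strand: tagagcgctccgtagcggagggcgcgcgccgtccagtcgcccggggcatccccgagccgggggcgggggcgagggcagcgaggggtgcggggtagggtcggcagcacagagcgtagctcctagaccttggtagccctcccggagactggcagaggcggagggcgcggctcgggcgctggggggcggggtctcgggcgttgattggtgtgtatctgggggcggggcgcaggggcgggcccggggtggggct

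The Irs2 window has the E-box at 44 to 39 bases before the start and TGTTTTG just behind it, at 37 to 31 bases. In the Irs1 window the E-box at 115 to 110 bases overlaps TGTTTTG at 111 to 105 bases and TGACG, read on the other strand, at 118 to 114 bases, and TGTTTTG stands once more at 32 to 26 bases. The Pik3r1 window printed here holds none of these letters, and a second Pik3r1 window (chr13:101692631-101692880, minus strand), not printed, holds TGACG, read on the other strand, at 35 to 31 bases before its start. Of 32851 windows of the same length, 6.02% held the E-box, 5.56% held TGTTTTG, 17.8% held TGACG, and 0.295% (97 windows) held both the E-box and TGTTTTG. The E-box and TGTTTTG were each found in 2 of the 15 windows of the 9 genes with a window, those of Irs2 and Irs1. The forkhead site GTAAACA, present in 3.17% of all windows, was in 1 window of Akt1. TGACG was in 6 windows of 5 genes. The motifs were picked with these sequences in view, and a match of letters is a description of the sequence only. The RefSeq start of Irs2 lies 471 bases before the gene start in the tables, that of Irs1 23 bases before it, and that of Pik3r1 at the same base.

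Pik3r1, which encodes the main regulatory subunit of PI3-kinase (chr13:101680563-101768217, minus strand), rose with glucose in both treatments. Low-glucose levels were 9.65, 10.2 and 9.61 FPKM with vehicle and 9.67, 10.1 and 9.98 FPKM with TMAO. High-glucose levels were 15.2, 15.7 and 18.5 FPKM with vehicle and 14.5, 15.8 and 17.4 FPKM with TMAO. Library 3 was the highest in high glucose with either treatment, and the lowest high-glucose library was still above the highest low-glucose one. The rise was 1.68-fold with vehicle (95% interval 1.52 to 1.86, adjusted p = 2.12e-07) and 1.60-fold with TMAO (1.45 to 1.77, adjusted p = 9.78e-07). It ranked 331 and 403 of 16222 genes by size.

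None of the kinases between PI3-kinase and Foxo passed the test in any comparison. Pdpk1, the kinase that activates Akt (chr17:24073680-24150924, minus strand), ranged from 13.5 to 15.1 FPKM in low glucose and from 12.9 to 14.3 FPKM in high glucose. Akt1 (chr12:112653821-112674884, minus strand) ranged from 58.3 to 64.1 and from 56.7 to 64.7 FPKM, and Akt2 (chr7:27591552-27640826, plus strand), the isoform best known for glucose metabolism, from 46.6 to 53.8 and from 47.7 to 55.8 FPKM. These ranges overlap when the treatments are pooled, and with vehicle alone the high-glucose libraries of Pdpk1 (13.3, 13.5 and 13.6 FPKM) lay below the low-glucose ones (14.4, 14.0 and 14.3 FPKM). The log2 fold changes for glucose lay between -0.08 and 0.05 for the 3 kinases in both treatments, with intervals from -0.17 to 0.16, and the adjusted p-values were 0.554 or higher.

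Foxo1, a Foxo factor regulated by Akt (chr3:52268336-52353221, plus strand), had 3.07, 3.21 and 3.22 FPKM with vehicle and 3.43, 3.34 and 2.79 FPKM with TMAO in low glucose. In high glucose it had 2.75, 2.59 and 2.64 FPKM with vehicle and 2.52, 2.90 and 2.90 FPKM with TMAO. The vehicle groups did not overlap, while TMAO library 3 in low glucose lay inside the high-glucose range. The fold was 0.842 with vehicle (95% interval 0.753 to 0.941, adjusted p = 0.0852) and 0.871 with TMAO (0.780 to 0.973, adjusted p = 0.195), neither past the threshold. The vehicle value passed with no filter on low counts (adjusted p = 0.0447) and with only the 6 libraries compared (0.0457), and the TMAO value passed without TMAO library 3 in low glucose (0.0412). Exons of the antisense gene Gm20402 cover 674 bases of Foxo1 and had 0 counts.

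Foxo3 (chr10:42181841-42276755, minus strand), a second Foxo factor regulated by Akt, ranged from 11.2 to 12.5 FPKM in low glucose and from 11.3 to 12.6 FPKM in high glucose. Its fold for glucose was 1.02 with vehicle (0.949 to 1.10) and 1.01 with TMAO (0.940 to 1.09). Over all 12 libraries, 2 of the 10 genes had their 6 high-glucose libraries above all 6 low-glucose libraries in FPKM, beside 2.59% of tested genes, and 1 gene (Igf1r) had them below, beside 2.42%. The other 7 overlapped.

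**Figure D2:**
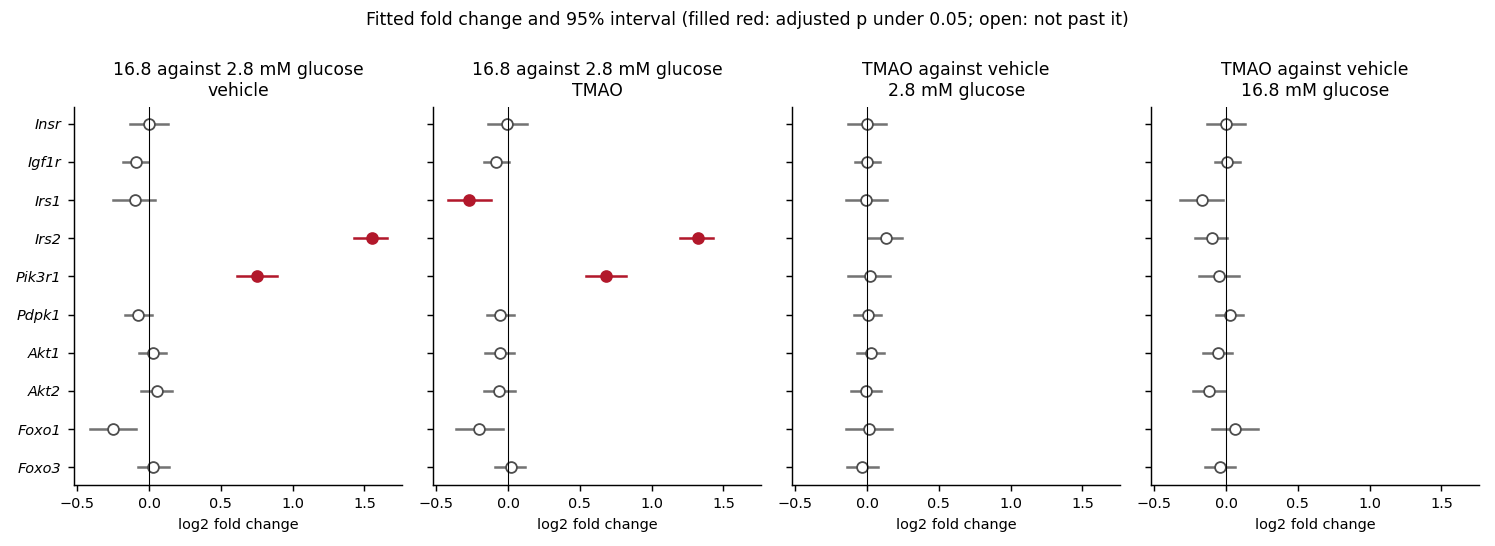
Fitted log2 fold change (horizontal axes) of each gene with its 95% interval in the 2 glucose comparisons and the 2 TMAO comparisons, with filled red points for an adjusted p under 0.05. Irs2 and Pik3r1 are past the threshold for glucose with either treatment and Irs1 for glucose with TMAO, and no gene is past it for TMAO.

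Within a library, the ratio of relatives does not depend on how libraries are scaled. On the FPKM scale the ratio of Irs2 to Irs1 was 4.85 ± 0.173 (SD, n = 3) with vehicle and 5.32 ± 0.151 with TMAO in low glucose, and 15.3 ± 1.64 and 16.0 ± 0.854 in high glucose. The low-glucose libraries all lay between 4.75 and 5.46 and every high-glucose library at 13.5 or above. High glucose raised the ratio 3.07-fold (exact two-sided permutation of the glucose labels within treatments over 400 arrangements, p = 0.005, the smallest this design allows, adjusted p = 0.04 over 8 tests). With the labels exchanged only within replicate numbers, 64 arrangements allow no exact permutation p below 0.0312, which the Irs2 to Irs1 ratio reached, and the adjusted p of 0.167 did not pass. TMAO shifted it 1.07-fold (exact permutation p = 0.08, adjusted p = 0.16).

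The ratio of Foxo3 to Foxo1 was 3.77 ± 0.149 with vehicle and 3.70 ± 0.561 with TMAO in low glucose, and 4.58 ± 0.154 and 4.26 ± 0.195 in high glucose. That is 1.19-fold for glucose, with an exact permutation p of 0.015 that became 0.06 after adjustment and so did not pass. TMAO library 3 in low glucose had the ratio 4.34, inside the high-glucose range, where the other 5 low-glucose libraries lay between 3.28 and 3.89. Igf1r to Insr (2.65 to 3.15 over the libraries) and Akt2 to Akt1 (0.784 to 0.872) moved 0.942-fold and 1.01-fold with glucose, with adjusted exact permutation p-values of 0.16 and 0.777.

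**Figure D3:**
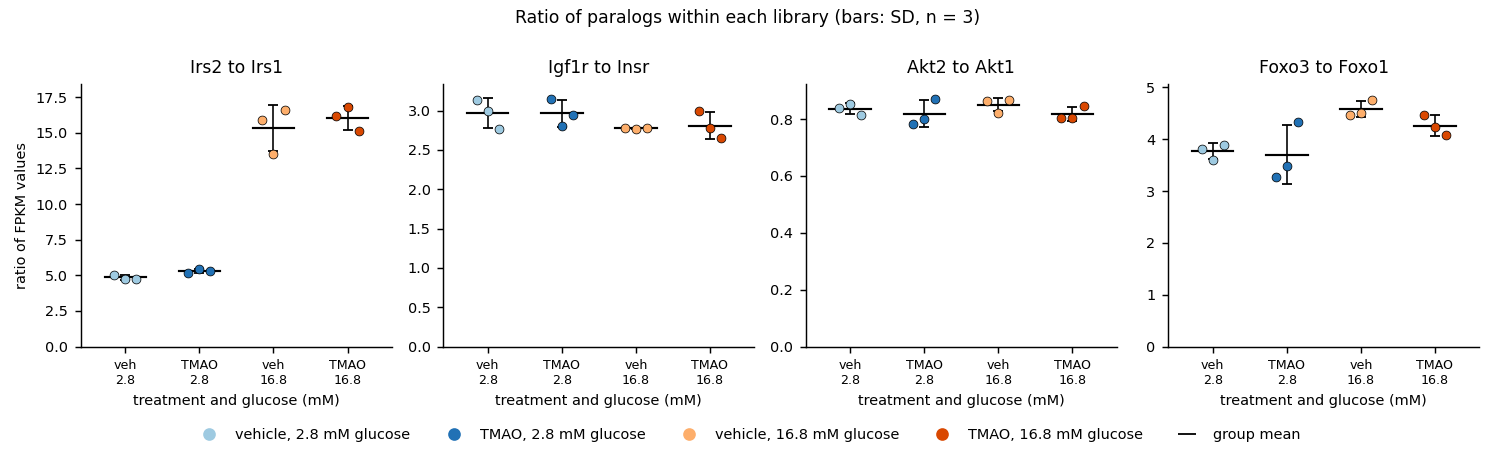
Ratio of FPKM values (vertical axes, starting at 0) of 4 pairs of relatives in each library, by treatment and glucose, with the mean and SD of 3 libraries. The Irs2 to Irs1 ratio stands between 4.75 and 5.46 in low glucose and at 13.5 or above in high glucose, and the ranges of the other ratios lie closer together.

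The second question of the design is whether TMAO changes these genes. With edgeR, TMAO changed none of the 10 genes in low glucose, where 0.00616% of all tested genes passed, and none in high glucose, where 0% did. DESeq2 and limma called none of the 10 either. At an unadjusted p under 0.05 there was 1 gene in low glucose, Irs2 (adjusted p = 1), and there were 2 in high glucose, Irs1 and Akt2 (both adjusted p = 0.91), beside 2.20% and 5.35% of all tested genes at that threshold. Over the 10 genes the 95% intervals of the log2 fold change for TMAO lay between -0.15 and 0.24 in low glucose and between -0.32 and 0.22 in high glucose. The TMAO and glucose comparisons share libraries, so they are not independent of each other.

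For Irs2 the TMAO values pointed in different directions at the 2 glucose levels. In low glucose all 3 TMAO libraries were above all 3 vehicle libraries (fold 1.09, 95% interval 1.00 to 1.18), and in high glucose the groups overlapped (0.930, 0.861 to 1.00). The interaction, which compares these effects, was -0.23 ± 0.08 on the log2 scale (95% interval -0.39 to -0.07) with an unadjusted p of 0.00731 from edgeR and an adjusted p of 1. It was negative in all 19 alternative fits, from -0.29 to -0.16, and past the threshold in none of them. No other gene of the 10 had an unadjusted p under 0.05 for the interaction, beside 3.36% of all tested genes at that threshold, and 0% passed after adjustment. Akt2 in high glucose was 48.5, 47.7 and 48.0 FPKM with TMAO, below the 55.8, 48.8 and 51.9 FPKM with vehicle, at a fold of 0.921 (0.854 to 0.993). The TMAO libraries of Akt2 were close together and all lower, yet the adjusted p was 0.91.

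Beyond the 10 genes, 70 further genes of the pathway in 11 roles were listed, of which 63 were tested. With vehicle 4 of the 63 rose with glucose and none fell, beside 1.99% and 1.31% of all tested genes. In TMAO-treated cells the same 4 rose with glucose and 1 fell, beside 2.0% and 1.64%. With edgeR none passed for TMAO at either glucose level or for the interaction. At an unadjusted p under 0.05 there were 5, 5 and 1 of the 63, beside 2.20%, 5.35% and 3.36% of all tested genes. DESeq2 and limma called none of the list for TMAO or the interaction either. The median log2 fold change of the list for glucose was -0.0032 with vehicle and -0.00029 with TMAO.

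At the top of the pathway, the ligand genes Ins1 and Ins2 had means of 4666 and 25489 FPKM. Their log2 fold changes for glucose were 0.04 ± 0.06 and 0.08 ± 0.05 (SE) with vehicle, with adjusted p-values of 0.84 and 0.489. Igf1 had 0 counts in every library and Igf2 a mean of 9.25 FPKM. The same-strand gene Gm49394 (mean 0.25 counts) shares 62.8% of the exonic bases of Igf2. The antisense gene Igf2os (mean 1983 counts) shares 1.71% of them. The effect of these overlaps on the Igf2 level was not tested. The receptor relative Insrr, at a mean of 12.5 FPKM, was above Insr at 4.51 FPKM. None of the ligands, other receptors, adaptors and receptor brakes passed in any comparison. Irs4 had 0 counts in every library and Irs3 at most 3, so only Irs1 and Irs2 of the 4 Irs genes were above the 3 counts taken as a floor. Of the PI3-kinase subunits 5 of 6 were tested and none passed, and Pik3r2 had at most 1 count in a library.

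Among Akt-related kinases, Sgk1, a kinase activated by Pdpk1 that shares substrates with Akt, stood out. It rose from 0.418, 0.384 and 0.492 FPKM to 1.51, 1.68 and 1.55 FPKM with vehicle and from 0.294, 0.523 and 0.305 FPKM to 1.41, 1.84 and 1.75 FPKM with TMAO. Its high-glucose and low-glucose groups did not overlap within either treatment, though the level is low, with 28 to 202 counts a library. The folds were 3.67 (95% interval 2.85 to 4.73, adjusted p = 6.21e-09) and 4.45 (3.44 to 5.76, adjusted p = 4.48e-10), or 1.88 and 2.15 on the log2 scale. With limma on log2(FPKM + 1), a scale that understates changes of low genes, the values for Sgk1 were 0.85 and 0.96, and on log2(FPKM + 0.1) they were 1.67 and 1.92. No other gene of that group passed the test in either glucose comparison.

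Of 6 genes listed as brakes on Akt, Trib1 and Trib2, pseudokinases of the Tribbles family, rose with glucose in both treatments. Whether Trib1 and Trib2 restrain Akt in these cells was not tested. Trib1 went from 4.74, 4.58 and 4.19 FPKM to 7.76, 7.17 and 8.40 FPKM with vehicle and from 5.09, 4.77 and 4.66 FPKM to 8.62, 7.65 and 8.11 FPKM with TMAO, at folds of 1.73 (95% interval 1.57 to 1.91) and 1.68 (1.52 to 1.85), with adjusted p-values of 2.95e-09 or lower. The high-glucose and low-glucose groups of Trib1 did not overlap. For Trib2 the folds for glucose were 1.29 (log2 0.37 ± 0.08 SE, adjusted p = 0.00233) and 1.36 (log2 0.45 ± 0.07 SE, adjusted p = 0.000141). Trib3 did not pass, with log2 fold changes of -0.05 ± 0.06 in both treatments. Phlpp1, a phosphatase that removes an activating phosphate from Akt, fell with glucose in TMAO-treated cells to 0.850 of its level (0.779 to 0.926, adjusted p = 0.0242). In vehicle-treated cells its fold for glucose was 0.937 (adjusted p = 0.567), and the interaction had an adjusted p of 1. The Phlpp1 call was lost without TMAO library 1 or 3 in low glucose (adjusted p = 0.128 and 0.12), without TMAO library 1 or 3 in high glucose (0.0971 and 0.168), and with limma on log2(FPKM + 1) and log2(FPKM + 0.1) (0.115 and 0.114).

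On the Foxo side, Foxo4 had a mean of 7.06 FPKM and Foxo6 a mean of 19.4 FPKM, the highest of the Foxo genes, and neither passed in any comparison. The lowest adjusted p was 0.127 for Foxo6 by glucose with TMAO, at a log2 fold change of -0.46 ± 0.14. Of 9 genes known as Foxo targets 8 were tested, and the transcriptional repressor Bcl6 rose with glucose, by 1.53-fold with vehicle (1.29 to 1.81, adjusted p = 0.00179) and 1.67-fold in TMAO-treated cells (1.4 to 1.99, adjusted p = 0.000243). The other 7 did not pass. The median log2 fold change of the 8 for glucose was 0.08 with vehicle and 0.16 in TMAO-treated cells, beside 0.0021 and 0.0012 over all tested genes. None of the 9 Akt substrates passed.

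**Figure D4:**
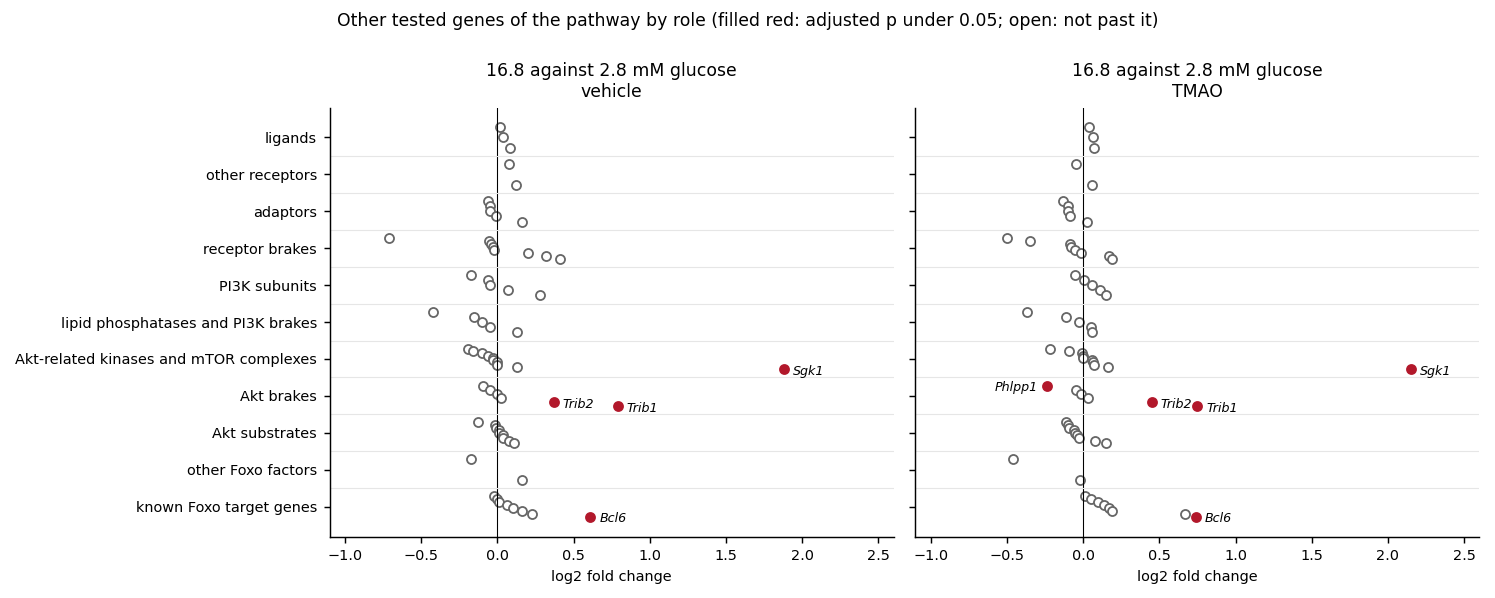
Log2 fold change for glucose (horizontal axes) of the 63 tested genes of the pathway list, grouped by role, with vehicle on the left and TMAO on the right. Filled red points are past an adjusted p of 0.05: Sgk1, Trib1, Trib2 and Bcl6 above 0 in both panels and Phlpp1 below 0 in TMAO-treated cells. The other points did not pass, and some of them lie farther from 0 than Trib2.

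The genes whose pattern over the 12 libraries was most like that of the changed members were read from Pearson's r of log2 library-scaled counts over 12309 genes with a mean of at least 50 counts. The libraries form 2 glucose levels, so a high r says chiefly that a gene shares that step, and it is given as a description. For Irs2 the nearest were Plk3 (r = 0.995), Junb (0.994) and Midn (0.994), all of which also rose with glucose, at log2 fold changes with vehicle of 0.58, 1.2 and 1.5. Junb encodes an AP-1 factor and Plk3 a polo-like kinase. For Pik3r1 they were Stk35 (r = 0.989), Zic5 (0.987) and Zswim4 (0.985), with rises of 1.08, 1.15 and 0.31. Irs2 and Pik3r1 correlated at r = 0.971 with each other, and Pik3r1 stood 48th among the genes nearest to Irs2. Irs1 was most like Arhgef2 (r = 0.930), Wipf2 (0.922) and Spen (0.914). Its r was -0.677 with Irs2 and 0.678 with Igf1r.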

How the data were processed

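The authors sequenced poly(A) RNA of 12 MIN6 libraries (NEBNext Ultra kit, paired-end). Per the labels the tools named are HISAT2 2.0.5, featureCounts 1.5.0-p3 and DESeq2 1.16.1 with build mm10; whether strand was used in counting is not stated. Per the study's methods, low glucose was 2.8 mM and high glucose 16.8 mM. The authors deposited raw counts per gene, not normalized, and FPKM values, whose library totals came within 1.37% of the count sums. Coordinates of the 10 genes equal those of GENCODE M21 (GRCm38).

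Counts were tested on all 16222 genes that passed filterByExpr with edgeR 4.0.16 in R 4.3.3 (TMM, robust quasi-likelihood fit of 4 group means over 12 libraries, Benjamini-Hochberg over all tested genes, threshold 0.05). Standard errors were the log2 fold change over the root of F, and intervals are at 95%. The biological coefficient of variation was 5.34%. Ratios of FPKM values were tested by exact permutation. FPKM values, whose log2 values were taken with a pseudocount of 1 or 0.1, were also fitted with limma 3.58.1, and counts with DESeq2 1.42.0. The fit was tested on simulated data. Other alternatives were DESeq2's size factors, no filter, a minimum of 10 counts per library, a fit of the compared libraries alone, a replicate block and each library left out.

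Groups and replicate numbers come from the labels. The study calls its samples biologically independent cell samples, while the labels do not say whether the libraries are separate cultures; if not, p-values measure a spread that may be technical. No libraries were alike within counting error (chi-square per gene 2.44 to 6.87 within groups). In the shallowest library 3 counts make up 1.79e-05%, which is the limit that a count of 0 allows for counting error only. The members, gene lists and motifs were chosen with earlier results of these data known. All 10 genes are named. Of the pathway list, the genes past the threshold are named, with the ligands and the relatives of members, and for each changed member the 3 genes of highest correlation. Motifs were searched in the RefSeq promoter windows.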

Additional observations from a re-analysis of the deposited data

How the results depend on the processing

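The glucose calls of Irs2 and Pik3r1 held in all 14 alternative fits of each comparison, with log2 fold changes of 1.49 to 1.61 and 0.66 to 0.81 with vehicle and 1.27 to 1.38 and 0.61 to 0.75 with TMAO, and the number of the 10 genes called kept within 1.5 times its value in every fit. The Irs1 call with TMAO held in 7 of 14, and was lost with only the libraries compared (adjusted p = 0.0531) and with limma on log2(FPKM + 1) and log2(FPKM + 0.1) (0.12 and 0.123) and without any of 4 of the 6 libraries. Of the pathway list, Sgk1, Trib1, Trib2 and Bcl6 kept their calls in all 14 fits of both glucose comparisons and Phlpp1 in 8 of 14. Calls were also gained in that list, where 5 genes rose with glucose in vehicle-treated cells with the replicate block, against 4, and 2 fell in TMAO-treated cells with DESeq2 and with no filter, against 1. With replicate number as a replicate block the counts were 717 genes for glucose with vehicle and 783 with TMAO, against 536 and 591 without it, and the Irs2 to Irs1 ratio kept its log2 difference of 1.62 but had an adjusted p of 0.167, since the 64 arrangements within replicate numbers allow no p below 0.0312. The deviations of same-numbered libraries correlated at r of -0.0369 to 0.206 over 18 pairs, over 0.1 in 2 of them, and 10 of 12 libraries correlated best with their own number, a hint of pairing that the labels do not give, so the fit without the block was kept. Called genes over the whole table were 347 and 337 with limma (pseudocounts 1 and 0.1) for glucose with TMAO. For TMAO in low glucose they were 7 with no filter, 3 with only the libraries compared and 0 with both limma fits, against 1; for TMAO in high glucose they were 1 with DESeq2, 13 with no filter and 3 with only the libraries compared, against 0; and for the interaction they were 6 with no filter, against 0. With each library left out they were 328 to 475 for glucose with vehicle, 344 to 657 for glucose with TMAO, 0 to 1 for TMAO in low glucose, 0 to 1 for TMAO in high glucose and 0 to 2 for the interaction. Fold changes near 0 changed sign. For Insr with vehicle the log2 fold change for glucose was 0.0033 with at least 10 counts in every library, 0.0011 with only the libraries compared and 0.0015 with the replicate block, and for TMAO in high glucose it was 3.6e-05 with no filter. For Igf1r and TMAO in low glucose it was 0.0013 with at least 10 counts and 0.00069 with only the libraries compared. Other changes of sign came from leaving out 1 library, given as the lowest and highest log2 value. For glucose with vehicle this held for Insr (-0.043 to 0.046) and Akt1 (-0.014 to 0.065). For glucose with TMAO this held for Insr (-0.053 to 0.075) and Foxo3 (-0.017 to 0.052). For TMAO in low glucose this held for Insr (-0.041 to 0.052), Igf1r (-0.009 to 0.0062), Irs1 (-0.069 to 0.045), Pdpk1 (-0.034 to 0.043), Akt1 (-0.0067 to 0.063), Akt2 (-0.059 to 0.044), Foxo1 (-0.044 to 0.10) and Foxo3 (-0.061 to 0.0033). For TMAO in high glucose this held for Insr (-0.048 to 0.077), Igf1r (-0.032 to 0.045), Pik3r1 (-0.12 to 0.04) and Pdpk1 (-0.0061 to 0.066). For the interaction this held for Insr (-0.053 to 0.075), Igf1r (-0.031 to 0.045), Pik3r1 (-0.14 to 0.022), Pdpk1 (-0.017 to 0.06), Foxo1 (-0.035 to 0.11) and Foxo3 (-0.048 to 0.021). The log2 ratio difference ran from -0.018 to 0.027 for Igf1r to Insr by TMAO, from -0.0034 to 0.035 for Akt2 to Akt1 by glucose, and from 0.21 to 0.31 for Foxo3 to Foxo1 by glucose, which passed the threshold without TMAO library 3 in low glucose. The cause of these changes was not tested. With 3 libraries a group, changes of a few percent in a gene could not be resolved.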
